A study of Mus musculus with 20 samples.

Results

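The 4 mature arms of miR-200c and miR-141, 2 microRNAs (miRNAs) cut from neighbouring hairpins on mouse chromosome 6, were followed over 5 stages of the passage of embryonic stem cells into epiblast stem cells. The arms were taken by name from the deposited miRNA tables of 2 lines, mmu-miR-200c-3p, mmu-miR-200c-5p, mmu-miR-141-3p and mmu-miR-141-5p (written without the species prefix from here on where several are named). They are 4 of 1063 mature miRNAs present in both tables, of 1091 in the male table and 1109 in the female table. Small RNA was sequenced in 20 libraries, 2 per line and stage. The female line was PGK and the male line was E14. Differentiating cultures of both lines were kept in N2B27 medium with Fgf2 and Activin A, on dishes coated with fibronectin, and were taken at day 4, day 10, days 19 to 23 and days 27 to 30. Day 0 cells of both lines had been grown in 2i medium. The first split came at day 4. The labels carry no other allele or agent.

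In the female line the third stage was day 23 in experiment 2 and day 21 in experiment 3, and the last was day 29 in both. In the male line the third stage was day 21 in experiment 2 and day 19 in experiment 3, and the last was day 27 in experiment 2 and day 30 in experiment 3. Each sex is 1 line, so sex and line cannot be told apart. The 2 libraries of a group are experiments 2 and 3 of the labels. Each p-value for a single miRNA thus measures against the spread between these differentiation experiments, estimated over all groups together. The permutation tests of ratios pool both lines, so their spread also holds the difference between the lines. The day 0 libraries of experiment 3 carry a cell type label of differentiating cells in both lines, while their title and day say day 0, and they were used as day 0.

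Members of the miR-200 family are best known for holding cells in an epithelial state. They bind the transcripts of Zeb1 and Zeb2, repressors of the epithelial adhesion gene Cdh1, and the Zeb proteins in turn bind the family's own promoters. Mammals carry the family at 2 loci, miR-200b, miR-200a and miR-429 at one and miR-200c and miR-141 at the other. A miRNA finds its targets mainly through its seed, the stretch near its start, so arms with one seed have overlapping targets whichever locus they come from.

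The mature sequences are shown first because the seeds tie each chromosome 6 arm to its chromosome 4 relatives and because few other positions separate them. They are RefSeq entries on GRCm38, written 5′ to 3′, with the seed, bases 2 to 8, in capitals. All lie on the minus strand. The arms of the pair lie on chromosome 6 at chr6:124718324-124718346 for miR-200c-3p, chr6:124718365-124718386 for miR-200c-5p, chr6:124717917-124717938 for miR-141-3p and chr6:124717959-124717980 for miR-141-5p.
miR-200c-3p: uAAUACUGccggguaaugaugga
miR-141-3p: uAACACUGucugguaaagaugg
miR-200c-5p: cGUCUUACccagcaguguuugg
miR-141-5p: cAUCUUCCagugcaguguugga
The relatives on chromosome 4 that share a seed with the pair lie at chr4:156055685-156055706 for miR-200b-3p, chr4:156053916-156053937 for miR-429-3p and chr4:156054911-156054932 for miR-200a-3p.
miR-200b-3p: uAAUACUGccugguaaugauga
miR-429-3p: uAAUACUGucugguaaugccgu
miR-200a-3p: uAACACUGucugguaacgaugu

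The 3p arms of the pair carry different seeds. miR-200c-3p has AAUACUG, shared in these tables with miR-200b-3p and miR-429-3p and with no other of the 853 measured miRNAs whose sequence was found. miR-141-3p has AACACUG, shared with miR-200a-3p only. The 5p seeds, GUCUUAC in miR-200c-5p and AUCUUCC in miR-141-5p, each occurred in 1 measured miRNA. Counted from the 5′ end, miR-200c-3p and miR-141-3p differ by U4C, C9U, G11U and U17A, with the miR-200c base first, and U4C is the difference inside the seed. Within the seed groups the loci differ at few positions. Over the 22 bases compared, miR-200c-3p and miR-200b-3p differ by G11U and G22A, and miR-141-3p and miR-200a-3p differ by A17C and G22U. How the authors' counting treated reads that could come from either of such close arms is not given in the sources used here, and sharing of reads between them was not tested.

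The hairpins are shown because both arms of each were measured and because they lie so close together. Capitals mark the mature arms, the 5p arm first.
Mir200c hairpin: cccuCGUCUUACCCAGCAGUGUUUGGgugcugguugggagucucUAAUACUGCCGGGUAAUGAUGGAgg
Mir141 hairpin: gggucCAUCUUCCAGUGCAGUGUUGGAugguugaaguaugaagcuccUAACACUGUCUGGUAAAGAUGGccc
Mir200c lies at chr6:124718322-124718390 and Mir141 at chr6:124717914-124717985 (GRCm38, minus strand), with 336 bases between them. In the GENCODE M21 annotation both hairpins lie in an intron of Gm15884, a gene of antisense type. Mir141 also overlaps an exon of Gm29008, a transcript still to be experimentally tested. The nearest protein-coding genes are Phb2, 964 bases from Mir141, and Ptpn6, 2317 bases from Mir200c. The nearest other miRNA on chromosome 6 with a row in the tables is miR-3098, at 477417 bases. The chromosome 4 hairpins Mir200b, Mir200a and Mir429 lie in an intron of Ttll10.

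The libraries held 7112398 to 18031067 miRNA counts, and 863 to 919 miRNAs had at least 1 count. A floor of 3 counts came to 0.166 to 0.422 CPM (counts per 1000000 miRNA counts), and floors and intervals here cover counting error only, since no molecular identifiers are described. Levels are CPM scaled by the trimmed mean of M values (TMM). Differences come from edgeR's quasi-likelihood test on all 20 libraries, with 813 of the 1063 miRNAs tested, all 4 arms of the pair among them. A call is a Benjamini-Hochberg adjusted p under 0.05 over those 813. In bulk cultures, fewer cells of a type and less of the miRNA per cell cannot be told apart. All comparisons of a line with its day 0 share the same 2 day 0 libraries.

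miR-200c-3p, miR-141-3p and miR-141-5p stood higher at day 0, day 4 and day 10 than later, and these 3 arms were called lower at days 27 to 30 than at day 10 in both lines. miR-141-3p had the highest count of the 4 arms in each library. miR-200c-3p and miR-141-5p followed at lower levels, and miR-200c-5p was close to the limit of detection. The lines differed at day 0, where miR-200c-3p and miR-141-3p stood lower in female cells. Against day 0, the female calls at day 4 were rises of miR-200c-3p and miR-141-5p. Both of these arms also stood higher at day 4 in male cells, without passing the test. The male calls at day 10 against day 0 were falls of miR-200c-3p and miR-141-3p. Compared directly between the lines, the day 4 change passed for no arm, and the day 10 change was not tested. From day 10 onward no arm differed between the lines at the threshold used.

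**Figure D1:**
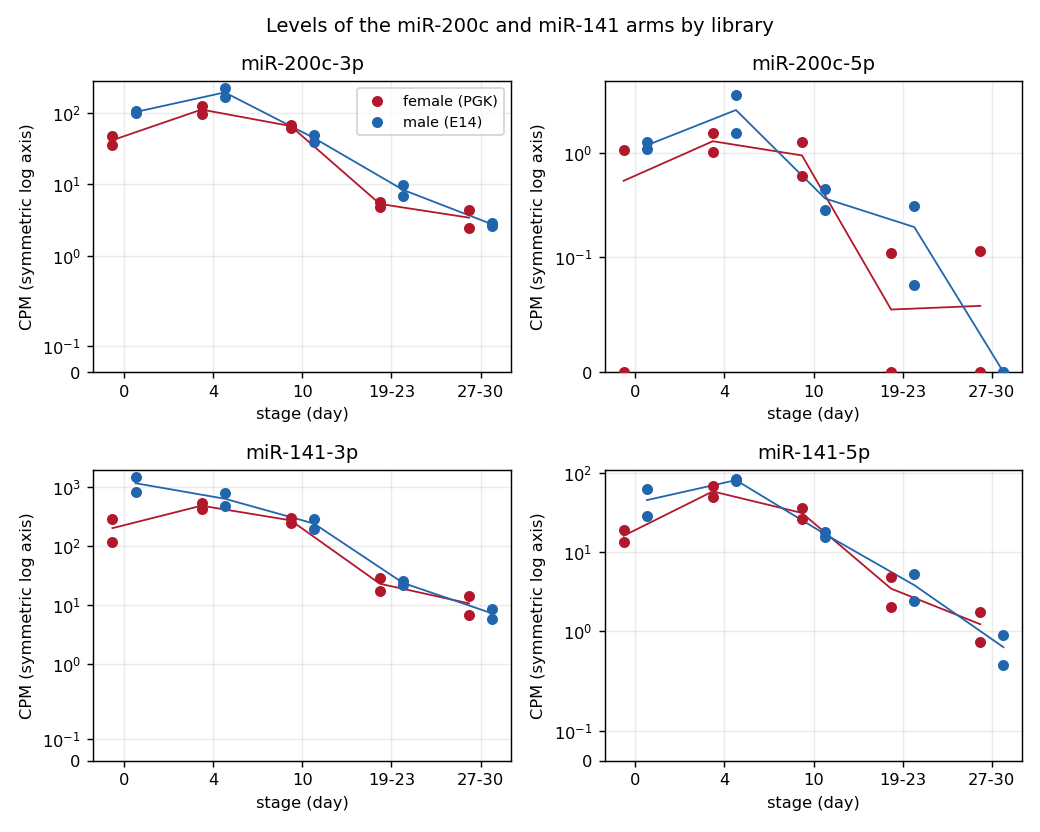
TMM-scaled CPM of each arm in each library on a symmetric log axis, by stage from day 0 to days 27 to 30, with female PGK libraries in red left of male E14 libraries in blue and lines joining the group means. Both libraries of both lines lie below 30 CPM for miR-141-3p from days 19 to 23 on, and at day 0 that arm lies lower in both female libraries than in both male libraries.

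mmu-miR-141-3p, the arm with the AACACUG seed, had 114 and 283 CPM in female cells at day 0, 424 and 527 at day 4, 239 and 297 at day 10, 28.7 and 16.9 at days 19 to 23, then 14.4 and 6.83 at days 27 to 30, experiment 2 before experiment 3 at each stage. In male cells it had 817 and 1459.6 CPM at day 0, 469 and 777 at day 4, 279.7 and 195 at day 10, 25.5 and 21.6 at days 19 to 23, then 8.62 and 5.74 at days 27 to 30. In these TMM-scaled values female cells were thus highest at day 4 and male cells at day 0. On plain totals the female libraries of day 4, at 234 and 441 CPM, overlapped those of day 10, at 206 and 347 CPM. The male libraries of day 0, at 662 and 1298 CPM, overlapped those of day 4, at 323 and 787 CPM. In both lines the libraries of the 2 late stages lay below every earlier library. By group mean the female order was day 4 at 476 ± 72.2 CPM, day 10 at 268 ± 41.1, day 0 at 198 ± 119, days 19 to 23 at 22.8 ± 8.33 and days 27 to 30 at 10.6 ± 5.34 (SD, n = 2 each). The male order was that of time, with 1138 ± 455 CPM at day 0, 623 ± 218 at day 4, 237 ± 60.0 by day 10, 23.5 ± 2.77 at days 19 to 23, then 7.18 ± 2.04 at days 27 to 30 (SD, n = 2 each). In the female order neither the step between day 4 and day 10 nor that between day 10 and day 0 passed the test. In the male order neither the step between day 0 and day 4 nor that between day 4 and day 10 passed, and the last step passed in neither line.

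mmu-miR-200c-3p, the arm with the AAUACUG seed, had 35.8 and 47.7 CPM in female cells at day 0, 128 and 96.7 at day 4, 69.0 and 62.9 at day 10, 4.89 and 5.75 at days 19 to 23, then 4.37 and 2.46 at days 27 to 30. In male cells the values were 101 and 107 CPM at day 0, 225 and 166 at day 4, 39.7 and 50.1 at day 10, 9.92 and 6.86 at days 19 to 23, then 2.90 and 2.61 at days 27 to 30. In these TMM-scaled values day 4 was highest in both lines, and its libraries did not overlap those of any other stage of the same line. On plain totals the female libraries of day 4, at 70.6 and 81.1 CPM, overlapped those of day 10, at 59.4 and 73.3 CPM. The female means were 41.8 ± 8.45, 112 ± 22.2, 65.9 ± 4.35, 5.32 ± 0.611 and 3.42 ± 1.35 CPM from the first stage to the last (SD, n = 2 each). The male means were 104 ± 4.33, 196 ± 41.9, 44.9 ± 7.34, 8.39 ± 2.16 and 2.75 ± 0.206 CPM (SD, n = 2 each). Ordered by mean, the female stages ran day 4, day 10, day 0, days 19 to 23 and days 27 to 30, and the step between day 0 and days 19 to 23 was the one that passed the test. The male stages ran day 4, day 0, day 10, days 19 to 23 and days 27 to 30, where the step between day 0 and day 10 and the one after it passed.

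mmu-miR-141-5p, the other strand of the miR-141 hairpin, had the lower count of the arms of that hairpin in every library. It had 18.8 and 13.3 CPM in female cells at day 0, 67.3 and 49.0 at day 4, 25.9 and 36.2 at day 10, 4.89 and 2.01 at days 19 to 23, then 1.73 and 0.729 at days 27 to 30. In male cells it had 61.9 and 28.3 CPM at day 0, 78.0 and 83.3 at day 4, 15.6 and 17.9 at day 10, 5.22 and 2.41 at days 19 to 23, then 0.886 and 0.373 at days 27 to 30. In these TMM-scaled values it was highest at day 4 in both lines, and each late library lay below every library of day 0, day 4 and day 10. The female step from day 4 to day 10 and the male step from day 0 to day 4 did not pass the test. On plain totals female day 10 experiment 3, at 42.2 CPM, lay above both female day 4 libraries, at 37.1 and 41.1 CPM.

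mmu-miR-200c-5p, the other strand of the miR-200c hairpin, is given in raw counts because it was so scarce. Female cells had 0 and 10 counts at day 0, 9 and 14 at day 4, 7 and 15 at day 10, 1 and 0 at days 19 to 23, then 1 and 0 at days 27 to 30. Male cells had 12 and 18 counts at day 0, 16 and 33 at day 4, 4 and 4 at day 10, 3 and 1 at days 19 to 23, then 0 and 0 at days 27 to 30. Its highest level in any library was 3.67 CPM. Both last male libraries had 0 counts. A floor of 3 counts over that group lies 10.3-fold below the male day 0 mean and 3.16-fold below the male day 10 mean. These folds take the earlier means as exact, though they rest on 30 and 8 counts with counting error of their own. The edgeR change from day 10 did not pass.

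With the main edgeR settings few miRNAs were called after day 10, and arms of the pair were prominent among them. At days 19 to 23 against day 10, 3 miRNAs of 813 were called in female cells (0.369%), and all 3 were arms of the pair. In male cells 2 of 813 were called (0.246%), and both were arms of the pair. DESeq2 called 4 miRNAs in female and 11 in male cells over this interval, 3 arms of the pair among them in each line. Female miR-200c-3p had a log2 change of -3.63 ± 0.40 (SE, edgeR adjusted p = 0.000146), miR-141-3p one of -3.56 ± 0.55 (edgeR adjusted p = 0.00437) and miR-141-5p one of -3.18 ± 0.59 (edgeR adjusted p = 0.0217). Male miR-141-3p had a log2 change of -3.33 ± 0.55 and miR-200c-3p one of -2.42 ± 0.38 (SE, edgeR adjusted p = 0.00801 for each). These are arms of both hairpins, and the later libraries of each line did not overlap those of day 10 for any of them.

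The other arms had log2 changes below 0 that did not pass with edgeR. Male miR-141-5p had -2.14 ± 0.57 (edgeR adjusted p = 0.226), an arm that DESeq2 called at -2.11 (DESeq2 adjusted p = 0.0122). miR-200c-5p had -3.99 ± 1.47 in female cells (edgeR adjusted p = 0.676) and -0.93 ± 1.30 in male cells (edgeR adjusted p = 0.869). Among all 813 log2 changes, ordered from the lowest, male miR-141-3p was number 1 and male miR-200c-3p number 14. Female miR-200c-5p, miR-200c-3p, miR-141-3p and miR-141-5p were numbers 4, 7, 9 and 13. Several of these calls rest on single libraries. Without female days 19 to 23 experiment 3 the adjusted p was 0.147 for miR-141-3p and 0.227 for miR-141-5p, and without female day 10 experiment 3 it was 0.0976 for miR-141-5p. In male cells, without days 19 to 23 experiment 2 it was 0.188 for miR-141-3p and 0.0669 for miR-200c-3p, and without experiment 3 it was 0.133 for each. Scaling by plain totals gave 0.0892 for both male arms and 0.0870 for female miR-141-5p, which the female line fitted alone put at 0.0556.

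By days 27 to 30 miR-200c-3p, miR-141-3p and miR-141-5p were called lower than at day 10 in both lines, with no overlap between the libraries of the 2 stages. They were 3 of 4 called miRNAs in female cells (0.492% of 813) and 3 of 6 in male cells (0.738%, of which 0.369% lower). DESeq2 called 33 miRNAs in female and 28 in male cells here, with the same number of arms, 3 in each line. Female log2 changes were -4.27 ± 0.42 for miR-200c-3p (edgeR adjusted p = 2.77e-05), -4.66 ± 0.58 for miR-141-3p and -4.67 ± 0.65 for miR-141-5p. Male log2 changes were -4.02 ± 0.41 for miR-200c-3p (edgeR adjusted p = 5.27e-05), -5.04 ± 0.59 for miR-141-3p and -4.72 ± 0.67 for miR-141-5p. The scarce miR-200c-5p had -3.93 ± 1.48 in female cells (edgeR adjusted p = 0.282) and -5.0 ± 1.99 in male cells (edgeR adjusted p = 0.264). In male cells the arms of the pair were numbers 1, 2, 3 and 5 of 813 from the lowest change, and in female cells numbers 9, 13, 20 and 25. The median over the 4 arms was -4.47 in female and -4.86 in male cells, beside 0.01 and -0.01 over all 813. Without male days 27 to 30 experiment 3, miR-141-5p stood at -4.23 with an adjusted p of 0.0583.

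The female minus male difference in this change was 0.38 for miR-141-3p, -0.25 for miR-200c-3p and 0.05 for miR-141-5p on the log2 scale (edgeR adjusted p = 0.9998 for each). edgeR called 0 of 813 miRNAs in that comparison (0%), with 32 at an unadjusted p under 0.05, and DESeq2 called 2. No arm of the pair was among any of these.

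**Figure D2:**
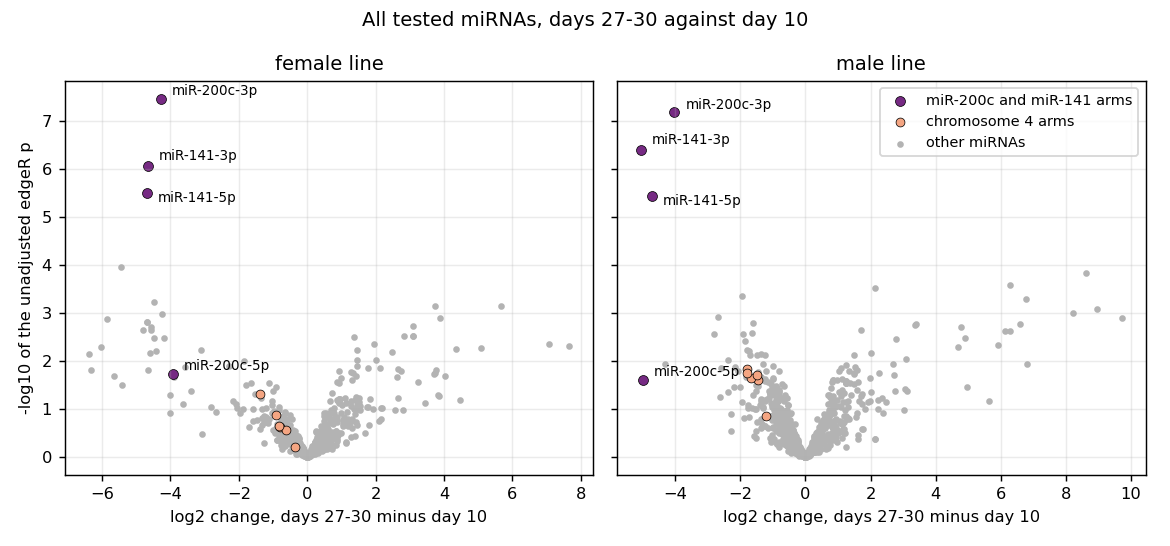
Log2 change at days 27 to 30 against day 10 for the 813 tested miRNAs (horizontal) and the negative log10 of the unadjusted edgeR p (vertical), female line left and male line right, with the pair in purple and the chromosome 4 miR-200 arms in orange. miR-200c-3p, miR-141-3p and miR-141-5p stand at log2 changes of -4.02 to -5.04, and the chromosome 4 arms lie between -0.37 and -1.80.

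From days 19 to 23 to days 27 to 30 no miRNA was called in either line (0% of 813). At an unadjusted p under 0.05, edgeR had 22 miRNAs in female and 37 in male cells, with 2 and 3 of the pair's arms among them. DESeq2 called 0 in female cells and 3 in male cells, 2 of them arms of the pair. Those were miR-200c-3p with -1.62 (DESeq2 adjusted p = 0.0173) and miR-141-5p with -2.62 (DESeq2 adjusted p = 0.0175). The edgeR changes were -1.60 ± 0.38 for male miR-200c-3p (adjusted p = 0.451), -1.71 ± 0.52 for male miR-141-3p (adjusted p = 0.532) and -2.58 ± 0.64 for male miR-141-5p. In female cells they were -0.65 ± 0.38, -1.11 ± 0.51 and -1.49 ± 0.62 (adjusted p = 1 for each).

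The early stages were compared with day 0 and with each other. At day 4 against day 0, female miR-200c-3p rose by 1.43 ± 0.36 (SE, edgeR adjusted p = 0.00653) and female miR-141-5p by 1.86 ± 0.55 (edgeR adjusted p = 0.0154) on the log2 scale. These were 2 of 4 arms, against 24.5% of all tested miRNAs called higher and 39.1% called in either direction. Female miR-141-3p had 1.26 ± 0.51 (edgeR adjusted p = 0.0593), with both day 4 libraries above both day 0 libraries in TMM-scaled CPM. On plain totals they overlapped, at 234 and 441 CPM against 95.4 and 240 CPM at day 0. In male cells edgeR called 0 of 4 arms at day 4, against 43.4% of all tested miRNAs, with 1 at an unadjusted p under 0.05 and 0 called by DESeq2. Over all miRNAs, 199 were called higher and 119 lower in female cells, against 154 and 166 under plain totals, and 204 higher and 149 lower in male cells, against 159 and 186 under size-factor scaling. Male miR-200c-3p had 0.91 ± 0.36 (edgeR adjusted p = 0.0517) and male miR-141-3p -0.87 ± 0.50 (edgeR adjusted p = 0.175).

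The female day 4 calls depend on single libraries. That of miR-200c-3p was lost without day 0 experiment 2 (adjusted p = 0.0761) or day 4 experiment 2 (adjusted p = 0.0722). That of miR-141-5p was lost without day 0 experiment 3 (adjusted p = 0.183) or day 4 experiment 2 (adjusted p = 0.0988), and under plain totals (adjusted p = 0.0519). Without male day 0 experiment 2, male miR-141-3p was called lower at -1.54 (adjusted p = 0.0407). The female minus male difference in the day 4 change of miR-141-3p, a comparison added after seeing the data, was 2.13 ± 0.71 (SE, edgeR adjusted p = 0.237). That of miR-141-5p was 1.02 ± 0.76 (edgeR adjusted p = 0.536) and that of miR-200c-3p was 0.51 ± 0.51 (edgeR adjusted p = 0.656), so no arm was shown to differ between the lines in its day 4 change. In that comparison edgeR called 0 of 813 miRNAs (0%), with 118 at an unadjusted p under 0.05, 1 of them an arm of the pair, and DESeq2 called 11, none of them an arm.

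At day 10 against day 0, 2 of 4 arms fell in male cells, where 33.7% of all tested miRNAs were called, 16.7% higher and 17.0% lower. Male miR-141-3p fell by 2.26 ± 0.52 (edgeR adjusted p = 0.00434) and male miR-200c-3p by 1.21 ± 0.36 (edgeR adjusted p = 0.0188) on the log2 scale. Male miR-141-5p had -1.43 ± 0.55 (edgeR adjusted p = 0.0551), which passed with a replicate block (adjusted p = 0.0369) and with a block within each line (adjusted p = 0.0491). DESeq2 called this arm at -1.35 (DESeq2 adjusted p = 0.0316). Leaving out single libraries moved its edgeR change between -1.93 and -0.85. The male miR-200c-3p call was lost under plain totals (adjusted p = 0.0784) and without day 10 experiment 2 (adjusted p = 0.0983). In female cells 0 of 4 arms were called by edgeR or DESeq2 or had an unadjusted p under 0.05, against 40.1% of all tested miRNAs called by edgeR, with log2 changes of 0.44 to 0.95. Whether the day 10 change differs between the lines was not tested.

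Between day 4 and day 10, 2 of 4 arms fell in male cells, where 8.12% of all tested miRNAs were called, 4.55% higher and 3.57% lower. These were 37 miRNAs higher and 29 lower, against 10 and 9 under plain totals and 55 and 16 under size-factor scaling. Male miR-200c-3p had a log2 change of -2.13 ± 0.37 (edgeR adjusted p = 0.00851) and male miR-141-5p one of -2.27 ± 0.56 (edgeR adjusted p = 0.0275). Male miR-141-3p had -1.39 ± 0.51 (edgeR adjusted p = 0.104). The miR-200c-3p call was lost without day 4 experiment 2 (adjusted p = 0.0805) or day 10 experiment 2 (adjusted p = 0.0868). The miR-141-5p call was lost without any 1 of the 4 male libraries of those days (adjusted p = 0.0954 to 0.236), under plain totals (adjusted p = 0.0619) and in the male line fitted alone (adjusted p = 0.0660). In female cells edgeR and DESeq2 called 0 of 4, with 1 at an unadjusted edgeR p under 0.05, against 6.52% of all tested miRNAs called by edgeR and 6.03% called lower, with log2 changes of -0.45 to -0.90. The female calls over all miRNAs were 4 higher and 49 lower, against 27 and 34 under plain totals.

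Against day 0 the later stages were called lower for 3 of the 4 arms, or all 4 in male cells at days 27 to 30, in comparisons where many miRNAs were called. At days 19 to 23, miR-200c-3p, miR-141-3p and miR-141-5p were called lower in female cells, against 40.5% of all tested miRNAs called and 19.3% called lower. The same 3 arms were called lower in male cells, against 34.3% called and 18.5% called lower. Over all miRNAs, 172 were called higher and 157 lower in female cells and 129 higher and 150 lower in male cells, against 253 and 116 in female and 222 and 99 in male cells under plain totals. The largest of these 6 changes was in male miR-141-3p, at -5.60 (edgeR adjusted p = 9.29e-06), and the smallest in female miR-141-5p, at -2.22 (edgeR adjusted p = 0.00628), whose adjusted p was 0.0843 without female days 19 to 23 experiment 3.

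At days 27 to 30 against day 0, 3 of 4 arms were called lower in female cells, against 43.5% of all tested miRNAs called, 24.1% higher and 19.4% lower. All 4 were called lower in male cells, against 40.7% called, 19.6% higher and 21.2% lower. Over all miRNAs these were 196 higher and 158 lower in female cells and 159 higher and 172 lower in male cells, against 234 and 122 in female and 233 and 105 in male cells under plain totals. The 5p arm of miR-141 stood at -3.72 in female cells (edgeR adjusted p = 0.000266) and -6.15 in male cells (edgeR adjusted p = 1.57e-05). Male miR-200c-5p was called (edgeR adjusted p = 0.00915), but not without male days 27 to 30 experiment 3 (adjusted p = 0.0589).

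The lines were compared directly at each stage, female over male. At day 0, 8.73% of all tested miRNAs were called, 6.64% higher and 2.09% lower in female cells, and 2 of 4 arms were called lower in female cells. miR-141-3p had 114 and 283 CPM in female cells, against 817 and 1459.6 CPM in male cells, a log2 difference of -2.52 ± 0.53 (edgeR adjusted p = 0.00453). miR-200c-3p had 35.8 and 47.7 CPM in female cells, against 101 and 107 CPM in male cells, a log2 difference of -1.32 ± 0.36 (edgeR adjusted p = 0.0326). The libraries of the lines did not overlap for either arm. The miR-200c-3p call was lost under plain totals (adjusted p = 0.0552), without a filter on low counts (adjusted p = 0.0726) and without female day 0 experiment 2 (adjusted p = 0.114).

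miR-141-5p had a female minus male difference of -1.49 ± 0.55 at day 0 (edgeR adjusted p = 0.119), which DESeq2 called (adjusted p = 0.0314), as did edgeR without male day 0 experiment 3 (adjusted p = 0.0414). At day 4, 0 of 4 arms were called by edgeR or DESeq2, with 1 at an unadjusted edgeR p under 0.05, against 5.04% of all tested miRNAs, 38 higher and 3 lower in female cells (29 and 9 under plain totals). From day 10 on, edgeR called 0 of 813 miRNAs at each stage (0%), with 97, 60 and 63 at an unadjusted p under 0.05 at day 10, days 19 to 23 and days 27 to 30. DESeq2 called 25, 2 and 4 of all miRNAs at those stages and 0 arms of the pair.

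The change from day 0 to days 27 to 30 was also compared between the lines. The female minus male difference in it was 3.08 ± 0.73 for miR-141-3p (SE, edgeR adjusted p = 0.0592), 2.43 for miR-141-5p (edgeR adjusted p = 0.239) and 1.62 for miR-200c-3p (edgeR adjusted p = 0.210) on the log2 scale. None passed with edgeR, where 3 of 813 were called (0.369%) and 3 arms had an unadjusted p under 0.05. For miR-141-3p it passed with a replicate block (adjusted p = 0.0337), with DESeq2 (adjusted p = 0.0033) and without male day 0 experiment 2 (adjusted p = 0.0253). It also passed without a filter on low counts (adjusted p = 0.0457) and with a filter at a mean of 10 CPM (adjusted p = 0.0489).

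The chromosome 4 arms, miR-200b, miR-200a and miR-429 with 2 arms each, are the rest of the family and are set beside the pair here. At days 27 to 30 against day 10, 0.492% of all tested miRNAs were called in female and 0.738% in male cells. Of the chromosome 4 arms, 0 of 6 were called in either line. Their log2 changes were -0.37 to -1.37 in female cells (median -0.81) and -1.22 to -1.80 in male cells (median -1.57). All 12 values were below 0, and none was called under any of the alternative settings. miR-200b-3p, the seed mate of miR-200c-3p with the most counts, had 4498 and 1723 CPM in female cells at days 27 to 30, against 5255 and 4383 CPM at day 10. In male cells it had 2879 and 1298 CPM at days 27 to 30, against 8499 and 3176 CPM at day 10. Late and day 10 libraries did not overlap in male cells and overlapped in female cells. On plain totals the male libraries overlapped too, at 3854 and 1744 CPM against 6626 and 3842 CPM at day 10.

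At day 4 against day 0, 24.5% of all tested miRNAs were called higher in female cells. The chromosome 4 arms were called higher there for 6 of 6, at a median log2 change of 2.78. This became 4 of 6 under plain totals, under size-factor scaling, without a filter on low counts and with each line fitted alone. Leaving out single libraries gave 3 to 6 of 6, with 3 of 6 without female day 0 experiment 2. In male cells, where 25.1% of all tested miRNAs were called higher, 1 of 6 was called, with a median of 1.12. It was miR-200b-3p at 1.53 ± 0.57 (edgeR adjusted p = 0.0402). That call was lost under size-factor scaling, without a filter on low counts, with each line fitted alone, with DESeq2 and without any single male library of day 0 or day 4, where 0 of 6 were called and up to 3 of 6 values lay below 0. It was also lost without male day 10 experiment 3 or either male library of days 19 to 23. Of the female libraries, leaving out any 1 lost it, except day 4 experiment 3 and days 19 to 23 experiment 3. Plain totals and the replicate block called 2 of 6. At days 27 to 30 against day 0, 3 of 6 were called higher in female cells (median 1.66) and 0 of 6 in male cells (median -0.52). Over all tested miRNAs, 24.1% were called higher in female and 19.6% in male cells. Between the lines at day 0, 8.73% of all tested miRNAs were called. No chromosome 4 arm was among them, and the median female minus male difference of these arms was -1.29.

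**Figure D3:**
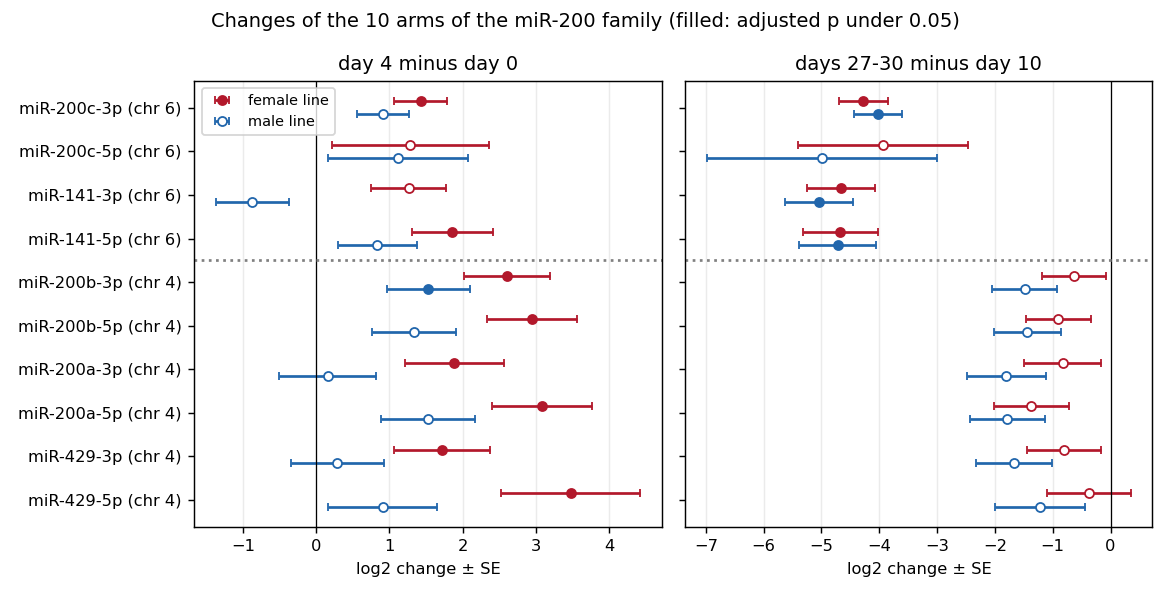
Log2 change with its SE for the 4 arms on chromosome 6 and the 6 on chromosome 4, at day 4 against day 0 and at days 27 to 30 against day 10, in each line, with filled points where the edgeR adjusted p was under 0.05. In the late comparison the filled points are miR-200c-3p, miR-141-3p and miR-141-5p in both lines, and the chromosome 4 arms lie between -0.37 and -1.80.

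Because arms with one seed have overlapping targets, the share of each seed's counts that came from chromosome 6 was taken within each library, which needs no scaling between libraries. For AACACUG this is miR-141-3p against the sum of miR-141-3p and miR-200a-3p. Over the 4 libraries of a stage the lowest, median and highest shares were 44.2, 63.8 and 71.5% at day 0 and 37.8, 41.2 and 52.7% at day 4. They were 15.2, 23.4 and 27.7% at day 10, 4.52, 5.23 and 7.38% at days 19 to 23, then 2.01, 2.31 and 2.67% at days 27 to 30. miR-141-3p thus held most of the AACACUG counts in 3 of 4 day 0 libraries and under 3% of them in all 4 late libraries, and stages did not overlap from day 4 on.

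For AAUACUG the share of miR-200c-3p, against the sum with miR-200b-3p and miR-429-3p, was small from the start. The lowest, median and highest shares were 2.36, 3.83 and 5.32% at day 0, 1.43, 2.11 and 4.26% at day 4, and 0.353, 1.02 and 1.14% at day 10. They were 0.132, 0.220 and 0.258% at days 19 to 23 and 0.0751, 0.0924 and 0.153% at days 27 to 30. The lowest rested on 38 counts, with a Wilson interval at 95% of 0.0548 to 0.103%, and the highest day 0 share on 370 counts, with one of 4.82 to 5.87%.

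Between days 27 to 30 and day 10 the ratio of chromosome 6 to chromosome 4 counts was lower by a mean log2 difference of -3.01 for AAUACUG and -3.57 for AACACUG. Late and day 10 libraries did not overlap for either seed. An exact two-sided permutation test of 4 against 4 libraries gave p = 0.0286 for each, the smallest it can give, and 0.0603 after Benjamini-Hochberg adjustment over 19 such tests, so neither passes. The test takes the 4 libraries of a stage as independent, while they share lines and experiment numbers. Paired within line and experiment, the exact sign-flip permutation p was 0.125 for each seed, the smallest that 4 pairs allow. The difference was of the same sign in each line, -3.49 in female and -2.52 in male cells for AAUACUG, and -3.83 in female and -3.30 in male cells for AACACUG.

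The ratio at day 10 was already below that at day 0, by -2.24 for AAUACUG and -2.48 for AACACUG, with no overlap (exact permutation p = 0.0286, adjusted 0.0603). At day 4 against day 0 the differences were -0.71 (exact permutation p = 0.143) and -1.06 (exact permutation p = 0.0857). At days 27 to 30 against day 0 they were -5.25 and -6.05, with no overlap (exact permutation p = 0.0286, adjusted 0.0603).

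**Figure D4:**
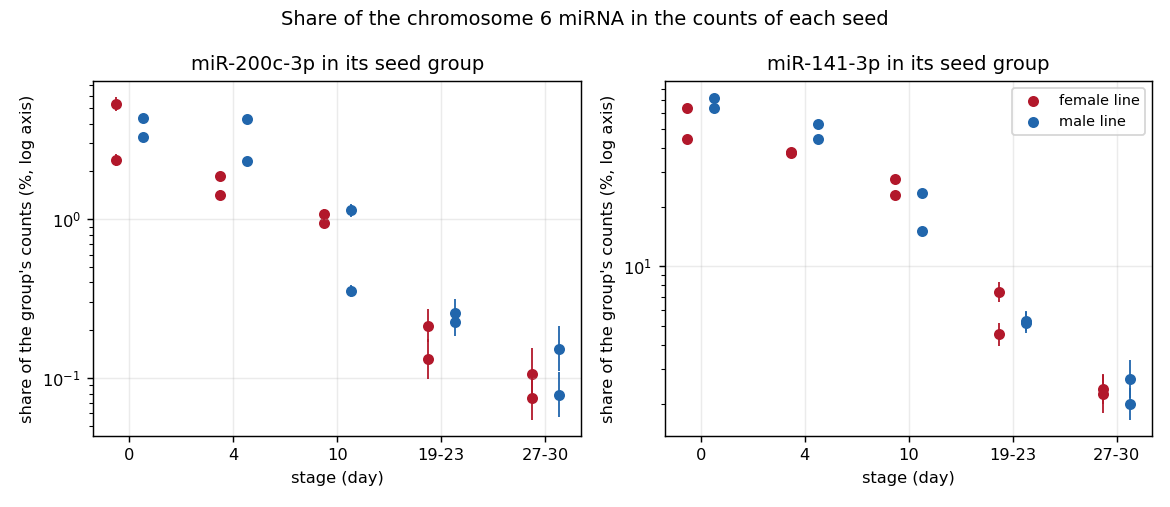
Share of each seed's counts that came from the chromosome 6 arm, in percent on a log axis, by library and stage, with Wilson intervals at 95% as bars, AAUACUG and AACACUG in separate panels. For AACACUG the 4 libraries at days 27 to 30 lie between 2.01 and 2.67%, and those at day 0 between 44.2 and 71.5%.

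Library by library, miR-141-3p counts were 2.44 and 2.30% of miR-200a-3p counts in female cells at days 27 to 30, against 30.1 and 38.2% at day 10 and 176 and 79.3% at day 0. In male cells they were 2.05 and 2.75% at days 27 to 30, against 17.9 and 30.9% at day 10 and 251 and 176% at day 0. miR-141-3p thus had the higher count of these seed mates in 3 of 4 day 0 libraries.

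miR-200c-3p counts at days 27 to 30 were 0.0972 and 0.143% of miR-200b-3p counts in female cells, while male cells had 0.101 and 0.201%. For the 5p arms, miR-141-5p counts were 1.99 and 1.35% of miR-200a-5p counts in female cells at days 27 to 30, against 11.5 and 26.2% at day 10. In male cells they were 1.22 and 1.51% at days 27 to 30, against 6.22 and 21.3% at day 10. These 5p arms differ at 5 positions over their length, one of them in the seed.

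The 2 hairpins of the pair were compared with each other within each library. For each count of miR-200c-3p there were 3.19 and 5.92 counts of miR-141-3p in female and 8.10 and 13.6 in male cells at day 0, and 3.31 and 5.44 in female and 2.08 and 4.67 in male cells at day 4. At day 10 there were 3.47 and 4.73 in female and 7.05 and 3.89 in male cells. At days 19 to 23 there were 5.87 and 2.94 in female and 2.57 and 3.14 in male cells, and at days 27 to 30 there were 3.29 and 2.78 in female and 2.97 and 2.20 in male cells. miR-141-3p outnumbered miR-200c-3p in all 20 libraries, most of all in the male day 0 libraries. The log2 ratio at days 27 to 30 differed from that at day 10 by -0.74 without overlap (exact permutation p = 0.0286, adjusted 0.0603). Against day 0 the difference was -1.29 (exact permutation p = 0.0571, adjusted 0.0987), and at day 4 against day 0 it was -0.89 (exact permutation p = 0.143).

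**Figure D5:**
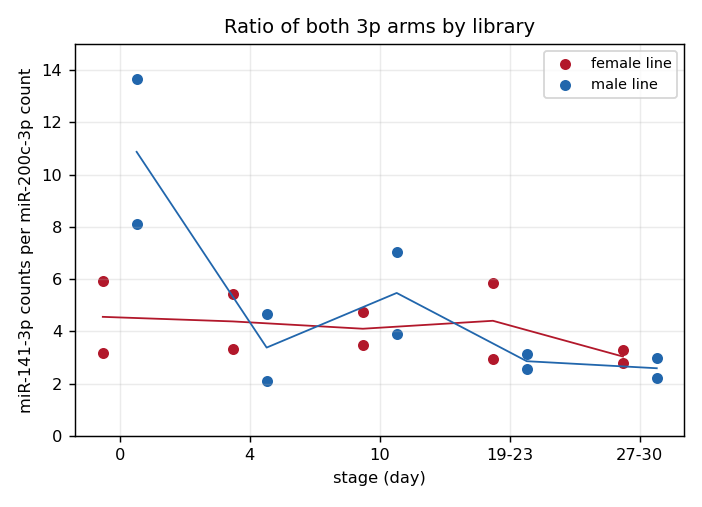
Counts of miR-141-3p for each count of miR-200c-3p in each library, by stage, with female PGK libraries left of male E14 libraries and lines for the group means. The 4 libraries at days 27 to 30 lie between 2.20 and 3.29, and the 2 male libraries at day 0, at 8.10 and 13.6, lie above all others.

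The balance of the arms within a hairpin kept the 3p arm in excess throughout. The 3p arm made up 83 to 98.1% of miR-141 counts and 96.9 to 100% of miR-200c counts over the 20 libraries. The highest value for miR-141 was in male day 0 experiment 3. At days 27 to 30 against day 10 the log2 ratio of 3p to 5p differed by -0.16 for miR-141 (exact permutation p = 0.6) and -0.76 for miR-200c (exact permutation p = 0.171). At day 4 against day 0 it differed by -1.13 for miR-141 (exact permutation p = 0.143) and -0.59 for miR-200c (exact permutation p = 0.714).

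The miRNAs whose profile was most like that of the pair were sought over all 20 libraries among 516 with enough signal, by Pearson's r of log2 CPM, as a description of libraries that share lines, stages and scaling. miR-200c-3p ran with miR-141-3p at r = 0.971, miR-141-5p at 0.977 and miR-200c-5p at 0.886. miR-141-3p ran with miR-141-5p at r = 0.955 and miR-200c-5p at 0.881. The chromosome 4 arms had r of 0.248 to 0.467 with these 3p arms.

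Outside the family, miR-378a-5p was most like both, at r = 0.845 with miR-200c-3p and 0.812 with miR-141-3p. The others among the 5 highest for miR-200c-3p were miR-182-5p, miR-378a-3p, miR-339-5p and miR-183-3p, at r of 0.743 to 0.780, and for miR-141-3p they were miR-290-5p, miR-339-5p, miR-182-5p and miR-15a-3p, at r of 0.747 to 0.765. miR-182-5p, of a cluster known from sensory epithelia, had r = 0.780 with miR-200c-3p and 0.759 with miR-141-3p. miR-378a-5p was scarce and changed little beside the pair. It averaged 7.51 ± 0.443 CPM in female cells at days 27 to 30, against 9.74 ± 1.76 at day 10 and 11.6 ± 3.31 at day 0 (SD, n = 2 each). In male cells it averaged 7.0 ± 0.328 CPM at days 27 to 30, against 10.5 ± 0.558 at day 10 and 16 ± 3.82 at day 0 (SD, n = 2 each). The least alike were miR-100-5p, at r = -0.852 with miR-200c-3p and -0.797 with miR-141-3p, and miR-199b-5p, at -0.834 and -0.848. Over the 10 group means instead of libraries, miR-378a-5p ranked 6 for miR-200c-3p and 7 for miR-141-3p.

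Markers of other cell types are given beside the late fall of the pair. At days 27 to 30 against day 10, edgeR called 0.492% of all tested miRNAs in female and 0.738% in male cells. These shares stand beside all marker counts below for that comparison. Of 6 mesenchymal miRNAs (miR-143-3p, miR-145a-5p, miR-199a-3p, miR-199a-5p, miR-214-3p and miR-21a-5p), 0 were called at days 27 to 30 against day 10 in either line, with median log2 changes of 2.26 in female and 2.44 in male cells. Their sums are given in CPM of plain totals, without TMM scaling, while the medians rest on TMM scaling. The summed level was 16162 and 20229.7 CPM in female cells at days 27 to 30, against 22301 and 18692 at day 10. None of the 6 was at 0 in those libraries. In male cells the summed level was 11843 and 15422 CPM at days 27 to 30, against 35973 and 18211 at day 10. The medians were above 0 while the sums were not higher in both libraries of either line. Sums lean on the most abundant members. Over all libraries miR-21a-5p had a median of 10708 CPM of plain totals, and miR-143-3p, the next, had 1236. At days 27 to 30 against day 0, 4 of the 6 were called higher and 2 lower in female cells. Over all tested miRNAs these shares were 24.1% and 19.4%. In male cells 2 were called higher and 0 lower, against 19.6% and 21.2% of all tested miRNAs. The part of such cells in the fall of the pair was not tested.

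Of 12 other epithelial arms, from miR-203, miR-205, miR-31 and the miR-183 cluster, 0 were called in either line, with medians of -0.39 in female and -1.0 in male cells. For endoderm, 0 of 2 tested were called, with medians of -0.40 in female and -0.67 in male cells. The hepatic miR-122-5p was at 0 to 0.108 CPM of plain totals over all libraries. The blood markers miR-451a and miR-223-3p summed to 0.0750 to 2.17 CPM of plain totals over all libraries. Of these, 0 of 2 were called, with medians of 1.41 in female and -3.10 in male cells. Of 3 neural markers 0 were called, with medians of 0.11 in female and -0.07 in male cells.

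Of 10 arms of the naive-state miR-290 cluster, 0 were called at days 27 to 30 against day 10, with medians of -0.05 in female and -0.69 in male cells. Of 10 arms known from the primed state, the miR-302 group, 0 were called, with medians of -0.79 in female and -1.35 in male cells. At day 4 against day 0, 24.5% of all tested miRNAs were called higher in female and 25.1% in male cells. Of the 10 arms of the miR-302 group, 10 were called higher in each line. Their medians were 6.90 in female and 5.98 in male cells, the rise known for the move from the naive to the primed state.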

How the data were processed

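Small RNA of 20 libraries (PGK female and E14 male lines, 5 stages, experiments 2 and 3) was sequenced after Trizol extraction and DNase treatment, per the labels' protocols. CASAVA 1.8.2 and DESeq2 stand in the submitters' processing notes, with GRCm38 and mm10 as builds, while the aligner and counting rules are not given in the sources used. The authors deposited raw counts per mature miRNA, 1 table per line, and a normalized signal per miRNA, which was checked to equal those counts divided by 1 size factor per library and was used for that check alone. A variance-stabilized table was not used.

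The 1063 miRNAs in both count tables were joined. edgeR 4.0.16 in R 4.3.3 fitted 10 groups of 2 libraries with TMM factors (0.551 to 1.43), filterByExpr (813 tested) and the quasi-likelihood F test, without a replicate block. Benjamini-Hochberg adjustment ran over all tested miRNAs within each contrast. The procedure was tested on simulated data. Library depth of 7112398 to 18031067 counts gives floors of 0.166 to 0.422 CPM at 3 counts. Ratios within a library used 0.5 added to each count, and exact two-sided permutation tests of 4 against 4 libraries (scipy 1.17.1). Alternatives were DESeq2 1.42.0, other scalings, filters and pseudocounts, each line alone, a replicate block and leaving out each library.

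The named miRNAs were the 4 arms in every contrast, the other miR-200 arms, counts and medians of marker lists (other epithelial, mesenchymal, neural, endoderm, blood and endothelium, naive, primed), and the 5 most and few least alike by Pearson's r. The members and lists were chosen with earlier results of these data known. The experiment name in the labels is taken to pair libraries of a line. Deviations from group means in libraries of 1 line and experiment correlated at -0.0998 to 0.403 between stages (median 0.0767), and those of the same stage and number in the other line at 0.130 to 0.554.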

Additional observations from a re-analysis of the deposited data

How the results depend on the processing

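The fall of the pair from day 10 to days 27 to 30 kept its 6 calls under plain totals, size-factor scaling, both filter alternatives, DESeq2, each line alone and the replicate block, and 5 to 6 without any single library (male miR-141-5p ranged from -5.47 to -4.23). Over all miRNAs DESeq2 made 33 calls in female and 28 in male cells there, against 4 and 6 with edgeR. With the replicate block edgeR called 14 higher and 16 lower in female and 11 and 5 in male cells. Each line alone gave 3 higher and 16 lower in female and 0 and 3 in male cells. Without a filter these were 3 and 12 in female and 11 and 4 in male cells. Other counts over all miRNAs that DESeq2 moved by more than 1.5 times were 11 against 2 for male days 19 to 23 against day 10, 108 against 66 for male day 10 against day 4, 78 against 41 between the lines at day 4, 39 against 3 for the difference of the change from day 0 to days 27 to 30 (13 under plain totals, 9 under size-factor scaling), and, where edgeR had 0, 3 for male days 27 to 30 against days 19 to 23, 25, 2 and 4 between the lines at day 10, days 19 to 23 and days 27 to 30, 2 for the difference of the change after day 10 and 11 for that of the day 4 change. Against day 0 the 17 calls became 15 to 20 without single libraries. For day 10 against day 4 the 2 calls became 1 under plain totals and in each line alone, and 0 to 2 without single libraries. For days 19 to 23 against day 10 the 5 calls became 2 under plain totals and 3 to 5 without single libraries. For days 27 to 30 against days 19 to 23 the 0 calls became 2 with DESeq2 and stayed 0 without any single library. Between the lines the 2 calls became 1 under plain totals or without a filter and 1 to 3 without single libraries. For the differences of late changes between the lines the 0 calls became 1 without a filter, with a filter at 10 CPM and with DESeq2, and 0 to 1 without single libraries.

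With the experiment as a replicate block, calls against day 0 numbered 18 and those for differences of late changes 1, both given above for male miR-141-5p and for miR-141-3p, and no other call of the pair changed under the block.

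The ratio of miR-141-3p to miR-200c-3p at days 19 to 23 against day 0 was -0.98, with -0.074 for the female line alone and -1.89 for the male line alone. The miR-200c ratio of 3p to 5p at days 27 to 30 against day 10 was -2.83 with a pseudocount of 5, and at day 4 against day 0 it was 0.18 with that pseudocount and -1.10 to 0.28 without single libraries. The miR-141 one at days 27 to 30 against day 10 was -0.33 to 0.074 without single libraries.

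Uncalled changes that reversed without a single library are given by their range. For miR-141-3p these were -0.026 to 1.10 in female cells at day 10 against day 0. Its female minus male difference ran from -0.24 to 0.28 at day 10, -0.69 to 0.28 at days 19 to 23, -0.19 to 0.91 at days 27 to 30 and -0.17 to 0.85 for the change after day 10 (-0.011 under plain totals). For miR-141-5p the difference ran from -1.12 to 0.36 at days 19 to 23 and -0.59 to 0.78 for the change after day 10. That last one was -0.015 with size factors, -0.27 under plain totals, -0.066 without a filter, -0.023 with the filter at 10 CPM and -0.0094 with DESeq2. For miR-200c-3p it ran from -0.27 to 0.49 at days 27 to 30 and -0.62 to 0.15 for the change after day 10. For the scarce miR-200c-5p, female changes ran from -0.14 to 6.32 at day 10 against day 0 and -0.86 to 0.18 at day 10 against day 4 (0.11 under plain totals). They ran from -5.50 to 2.36 at days 19 to 23 and -5.52 to 2.41 at days 27 to 30 against day 0, and -2.36 to 2.39 between those late stages (-0.042 under plain totals). Its female minus male difference ran from 0 to 3.37 at days 27 to 30, -1.19 to 2.18 for the change after day 10 and -0.75 to 5.70 for the day 4 change (-0.17 under plain totals). Plain totals moved the median change of all miRNAs by up to 0.682 on the log2 scale, and by 0.148 in female and 0.421 in male cells for days 27 to 30 against day 10. The causes of these shifts were not tested. Depth limits miR-200c-5p, which had at most 1 count in each late female library and 0 in both last male libraries.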
